A study of Mus musculus with 6 samples.

Results

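The BCL2 family was followed in TECs through 10 genes, 3 whose proteins hold apoptosis back (*Bcl2*, *Bcl2l1* and *Mcl1*) and 7 whose proteins promote it (*Bax*, *Bak1*, *Bcl2l11*, *Bbc3*, *Pmaip1*, *Bid* and *Bad*). They were chosen by name, and a gene counted as measured when a probe set carried its symbol alone. This held for 9 of the 10, each with 1 probe set, among 30176 genes measured in the same way. *Bax* has no probe set with that single symbol in the annotation used and was not analysed here. RNA came from CD45-negative EpCAM+ TECs sorted 7 days after tamoxifen treatment and was hybridized to 6 mouse whole-transcriptome arrays. The 3 arrays labelled KO are described as TECs of socs3fl/fl act cre ER mice (Δsocs3). In such mice the β-actin promoter drives a tamoxifen-inducible Cre in most cell types, thymocytes included, so that TECs were not the only cells exposed to it. The 3 arrays labelled WT are described as TECs of socs3fl/fl mice, which carry the same floxed *Socs3* alleles without the Cre and were also given tamoxifen. The study describes the 3 samples of a group as independent, and whether each sample came from 1 mouse or from pooled mice is not given in the sources used here. Ages of the mice are not given in the sources used here.

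BCL2 proteins decide whether the outer mitochondrial membrane is opened, the step that releases cytochrome c and starts caspase activation. BCL2, BCL-XL (encoded by *Bcl2l1*) and MCL1 bind and hold the effectors BAX and BAK, while BH3-only proteins such as BIM (*Bcl2l11*), PUMA (*Bbc3*), NOXA (*Pmaip1*), BID and BAD occupy the survival proteins or activate the effectors. Many members are controlled after transcription, by cleavage, phosphorylation or degradation, which RNA does not show. SOCS3 restrains signaling from gp130 receptors through JAK kinases and STAT3, and *Bcl2l1* and *Mcl1* are known as STAT3 targets in other cells.

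All levels below are log2 signals after the median over genes had been made equal on all arrays, and all differences are arrays labelled KO minus arrays labelled WT on that scale. Signals of different probe sets are not comparable as amounts of RNA. All 10 TEC markers examined, among them *Epcam*, *Krt8*, *Krt5*, *Foxn1* and *Psmb11*, had mean signals above 10.22, the 95th percentile of 5222 negative control probe sets. Replicate 2 of the arrays labelled KO stood apart, with an SD over genes of 2.33 against 2.61 to 2.67 on the other 5 arrays. It was the lowest of the arrays labelled KO in 90.5% of the genes with a mean between 8 and that percentile and in 90.0% of the 4446 genes above it. Spikes, added controls that do not come from the TECs, were low on this array too. Its hybridization spikes had a mean of 9.895, against 11.02 to 11.11 on the other 5 arrays. Its polyA spikes had a mean of 6.66, the lowest of the 6 arrays. Its median of positive minus negative controls was 3.2, against 3.965 to 4.26. Whether array quality explains its low signals was not tested. *Socs3*, the targeted gene, gave 8.54, 8.14 and 8.38 on the arrays labelled KO and 7.99, 8.25 and 7.87 on those labelled WT. Its difference of 0.32 (SE 0.16, adjusted p = 0.284) was not negative, and after quantile normalization it was 0.54 with an adjusted p of 0.0375. Which part of the transcript these probes cover is not known here, so the labels could not be checked against the deletion. The study states that *Socs3* mRNA was reduced in Δsocs3 TECs, which is not the direction measured here under the labels. The groups are therefore named by their labels throughout.

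Of the 9 measured members, only *Bcl2* passed the test, and it was lower on the arrays labelled KO. Over all genes, 1.7% passed in either direction and 1.18% were lower, by limma with Benjamini-Hochberg adjustment at an adjusted p under 0.05. At an unadjusted p under 0.05, 2 members were called (*Bcl2* and *Mcl1*), against 23.7% of all genes. The signals of *Bcl2*, *Mcl1* and *Bcl2l11* did not overlap between the groups and were lower on the arrays labelled KO, a pattern found in 26.4% of all genes. In either direction, 34.6% of all genes did not overlap. The study gives *Bcl2*, *Tnfrsf1a*, *Foxo1*, *Il7* and *Aire* the opposite direction on these samples, so for every gene described here the genotype to which a direction belongs is not settled.

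*Bcl2*, the founding survival gene of the family, gave 9.12, 8.44 and 9.09 on the arrays labelled KO (replicates 1, 2 and 3) and 10.15, 10.45 and 10.14 on the arrays labelled WT. Every array labelled KO lay below every array labelled WT, by more than the spread within either group. The means were 8.88 ± 0.38 on the arrays labelled KO and 10.25 ± 0.18 on those labelled WT (SD, n = 3 each), a difference of -1.36 (SE 0.21, 95% interval -1.86 to -0.86, adjusted p = 0.0376). An exact two-sided permutation test gave p = 0.1, the smallest value that 3 arrays against 3 allow. The lowest array was replicate 2 of those labelled KO, and without it the difference was -1.14 (adjusted p = 0.00492). Leaving out any one of the other 5 arrays, KO replicate 1 or 3 or any WT replicate, kept the direction and gave adjusted p of 0.0878 to 0.179, when at most 4 of all genes passed. The signal was dim: 0 of the arrays labelled KO and 1 of the arrays labelled WT exceeded the 95th percentile of their own negative controls, so no fold change is given. In sorted cells measured in bulk, fewer cells expressing a gene and less RNA per cell cannot be told apart. The mean log2 signal of the 10 TEC markers was lower too, at 14.24 to 14.88 on the arrays labelled KO and 14.96 to 15.34 on the arrays labelled WT, with negative differences for 9 of 10 (median -0.71) and 1 call, *Aire*, which was higher on the arrays labelled KO. For *Aire* too, the study gives the opposite direction. All genes above the negative controls had a median difference of -0.34. After quantile normalization 3 of the 10 TEC markers had positive and 7 had negative differences, with a median of -0.43. The part of the shift in TEC markers in the signal of *Bcl2* was not tested.

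The bases before the start of *Bcl2* are shown because it is the member whose signal differed. They are the 250 bases upstream of the annotated start in RefSeq (GRCm38.p6, chr1:106714291-106714540, minus strand, 5′ to 3′), and the capitals mark 7 matches to the GC box GGGCGG on either strand.
Bcl2: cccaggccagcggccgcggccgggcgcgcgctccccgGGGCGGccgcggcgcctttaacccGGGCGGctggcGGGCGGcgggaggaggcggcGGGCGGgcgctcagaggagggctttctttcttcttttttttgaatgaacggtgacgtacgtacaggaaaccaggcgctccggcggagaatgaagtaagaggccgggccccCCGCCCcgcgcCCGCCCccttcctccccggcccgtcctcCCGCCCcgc
The windows from 250 bases before to 50 after the start were searched on both strands for a STAT motif (TTCNNNGAA), a FOXO motif (GTAAACA), a cyclic AMP response element (TGACGTCA), an E-box (CACGTG), the GC box and a TATA box (TATAAA), and matches were allowed to overlap. The search covered 15 windows of 9 of the 10 genes, *Bax* included, and the window of *Pmaip1* was not used here. No window held the STAT motif, which 8.3% of all 32851 windows hold. The GC box occurred in 10 of the 15 windows and in 35.7% of all windows. A match or its absence describes these letters only.

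*Mcl1*, which encodes a short-lived survival protein, was the only member whose mean exceeded the negative control percentile. It gave 12.87, 12.46 and 12.87 on the arrays labelled KO and 13.11, 13.21 and 13.18 on the arrays labelled WT. The groups did not overlap, but the difference of -0.43 (SE 0.15, 95% interval -0.79 to -0.079) did not pass (adjusted p = 0.152). It lay close to the median difference of all 4446 genes above the negative controls, which was -0.34. After quantile normalization the difference of *Mcl1* was -0.18 (adjusted p = 0.275).

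*Bcl2l1* gave 8.92, 8.51 and 9.0 on the arrays labelled KO and 8.57, 8.71 and 8.62 on the arrays labelled WT. Replicates 1 and 3 labelled KO were the highest of the 6 arrays and replicate 2 the lowest, so the groups overlapped. The difference was 0.18 (SE 0.16, 95% interval -0.20 to 0.55, adjusted p = 0.553). After quantile normalization it was 0.46 (adjusted p = 0.0347), when 7.28% of all genes passed. Without replicate 2 of the arrays labelled KO it was 0.33 (adjusted p = 0.077).

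**Figure D1:**
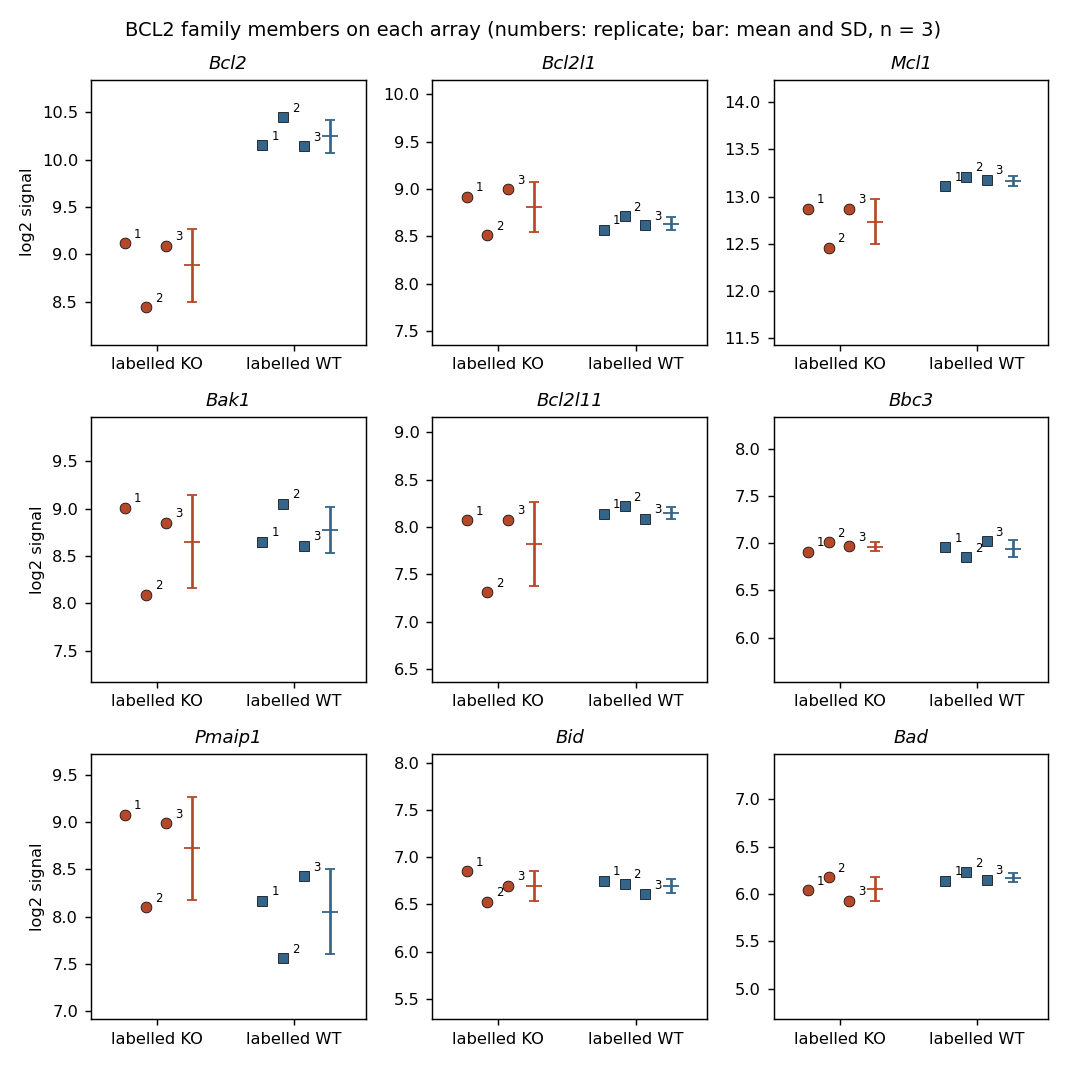
Log2 signal (y axis, the same span in every panel, each with its own origin) of the 9 measured BCL2 family members on the 3 arrays labelled KO and the 3 arrays labelled WT, with the replicate number beside each point and the mean and SD beside each group. *Bcl2* is the one gene whose groups stand clearly apart, at 8.44 to 9.12 against 10.14 to 10.45, and replicate 2 is the lowest array labelled KO in 7 of the 9 panels.

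Among the pro-apoptotic genes, 0 of 6 passed in limma and 0 had an unadjusted p under 0.05 in the same fit. *Pmaip1* (NOXA), a BH3-only antagonist of MCL1, had the largest difference of the 6. It gave 9.08, 8.10 and 8.99 on the arrays labelled KO and 8.17, 7.56 and 8.43 on the arrays labelled WT. Replicate 2 was the lowest array in both groups, and its level among the arrays labelled KO lay below the 2 highest arrays labelled WT. The difference was 0.67 (SE 0.32, 95% interval -0.086 to 1.43, adjusted p = 0.256). Without replicate 2 labelled KO it was 0.98 with an adjusted p of 0.0487, when 11.2% of all genes passed, and with array weights it was 0.80 with an adjusted p of 0.0344, when 15.1% passed.

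*Bcl2l11* (BIM), the BH3-only activator that is required for the deletion of self-reactive thymocytes, gave 8.07, 7.31 and 8.08 on the arrays labelled KO and 8.14, 8.22 and 8.09 on the arrays labelled WT. The groups did not overlap, yet replicates 1 and 3 labelled KO lay next to the arrays labelled WT and replicate 2 alone lay far below. The difference was -0.33 (SE 0.22, 95% interval -0.85 to 0.19, adjusted p = 0.413), and without that array it was -0.075 (adjusted p = 0.647). *Bbc3* (PUMA), known as a p53 target, gave 6.91, 7.01 and 6.97 on the arrays labelled KO and 6.96, 6.85 and 7.02 on the arrays labelled WT. The groups lay over each other, with a difference of 0.02 (SE 0.12, 95% interval -0.25 to 0.29, adjusted p = 0.935).

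*Bcl2l11* and *Bbc3* are known FOXO targets and were the only members with the FOXO motif, in 2 of the 15 windows scanned (3.65% of all windows hold it). They are shown for that reason, with the motif in capitals on either strand. The stretch of *Bcl2l11* runs from 250 to 171 bases before a start (RefSeq, GRCm38.p6, chr2:128125788-128125867, plus strand), and that of *Bbc3* from 210 to 131 bases before one of its starts (chr7:16310051-16310130, plus strand).
Bcl2l11: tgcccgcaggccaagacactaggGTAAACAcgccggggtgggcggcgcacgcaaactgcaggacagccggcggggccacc
Bbc3: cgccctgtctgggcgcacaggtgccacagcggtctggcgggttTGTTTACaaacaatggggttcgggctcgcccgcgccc
*Foxo1*, which encodes a FOXO factor, gave 9.31, 8.28 and 9.13 on the arrays labelled KO and 9.91, 10.50 and 10.16 on the arrays labelled WT. Its groups did not overlap and differed by -1.28 (SE 0.29, adjusted p = 0.0716). Its signal was dim, with 0 of the arrays labelled KO and 1 of those labelled WT above their own negative control percentile. *Foxo1* passed after quantile normalization (-0.96, adjusted p = 0.026) and without replicate 2 labelled KO (-0.97, adjusted p = 0.021). Whether the factor binds these letters in TECs was not measured.

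*Bak1*, which encodes the pore-forming effector BAK, gave 9.01, 8.09 and 8.85 on the arrays labelled KO and 8.65, 9.05 and 8.61 on the arrays labelled WT. The groups overlapped (difference -0.12, SE 0.26, 95% interval -0.73 to 0.49, adjusted p = 0.816), and without replicate 2 labelled KO the sign turned (0.16, adjusted p = 0.548). *Bid*, whose product links death receptors to mitochondria after cleavage by caspase-8, ranged from 6.53 to 6.85 on the arrays labelled KO and from 6.61 to 6.75 on the arrays labelled WT. The means were equal at 6.69 (difference 0.00, 95% interval -0.31 to 0.31). *Bad*, whose product is inactivated by survival kinases, ranged from 5.93 to 6.18 on the arrays labelled KO and from 6.14 to 6.23 on the arrays labelled WT (difference -0.12, SE 0.12, 95% interval -0.41 to 0.17, adjusted p = 0.592). No array of either group exceeded its own negative control percentile for any of the 6 pro-apoptotic genes.

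The median difference was -0.43 over the 3 anti-apoptotic genes and -0.06 over the 6 pro-apoptotic genes, against -0.053 over all genes. The 3 anti-apoptotic genes did not move together, since *Bcl2l1* had the opposite sign of *Bcl2* and *Mcl1*. Replicate 2 of the arrays labelled KO was the lowest array of its group for 7 of the 9 members, against 51.9% of all genes. It was the lowest of all 6 arrays for 6 members, against 42.1% of all genes. It was the lowest of its group in 90.5% of genes with a mean between 8 and the negative control percentile and 90.0% above it. Without it, the median was -0.30 over the anti-apoptotic genes and 0.039 over the pro-apoptotic genes.

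Of 4 other anti-apoptotic genes measured, *Bcl2a1a* and *Bcl2a1d* passed and were higher on the arrays labelled KO, against 0.517% of all genes, and *Bcl2l2* and *Bcl2l10* did not pass. *Bcl2a1a* gave 11.79, 11.26 and 12.41 on the arrays labelled KO and 10.32, 9.77 and 10.05 on the arrays labelled WT, and every array labelled KO was above every array labelled WT, as in 8.14% of all genes. The difference was 1.77 (SE 0.30, adjusted p = 0.0429), and 3 of the arrays labelled KO and 0 of the arrays labelled WT exceeded their own negative control percentile. *Bcl2a1d* gave 9.91, 9.85 and 10.33 on the arrays labelled KO and 8.77, 8.01 and 8.30 on the arrays labelled WT, again without overlap. The difference was 1.67 (SE 0.23, adjusted p = 0.033), and the probe set was dim, with 1 of the arrays labelled KO and 0 of the arrays labelled WT above their own negative control percentile. Both differences were positive in every setting run, from 1.48 to 2.12 for *Bcl2a1a* and from 1.5 to 1.95 for *Bcl2a1d*. Leaving out any array other than KO replicate 2, that is KO replicate 1 or 3 or any WT replicate, gave adjusted p of 0.0981 to 0.199 for *Bcl2a1a* and 0.0878 to 0.136 for *Bcl2a1d*.

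Both encode A1, a survival protein found mainly in hematopoietic cells, and they are copies of one gene. In RefSeq (GRCm38.p6) their full windows of 300 bases, compared position by position without gaps, were the same at 199 positions. The 100 bases before their starts were the same at 98 positions, and they are set side by side to show this likeness. They lie before the annotated start, so they do not show whether probes for one also bind RNA of the other. *Bcl2a1a* is at chr9:88956820-88956919 on the plus strand and *Bcl2a1d* at chr9:88731851-88731950 on the minus strand, and capitals mark the 2 positions that differ.
Bcl2a1a: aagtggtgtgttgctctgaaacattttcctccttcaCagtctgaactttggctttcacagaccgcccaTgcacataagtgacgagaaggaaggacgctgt
Bcl2a1d: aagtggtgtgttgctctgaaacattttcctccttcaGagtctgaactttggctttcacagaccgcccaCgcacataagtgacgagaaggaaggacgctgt
The sequences of the probes were not used here, so whether the 2 probe sets measure the copies separately was not tested. Markers of myeloid cells moved the same way: 3 of 13 passed, all higher on the arrays labelled KO, against 0.517% of all genes called higher. They were *Lyz2*, *Mrc1* and *C1qb*, with differences of 1.83, 1.26 and 0.69. Of the 13 markers, 12 had positive differences, and 1 had a mean above the negative control percentile. The count of myeloid markers called was 7 without replicate 2 labelled KO and 6 after quantile normalization, when 5.15% and 3.8% of all genes were called higher. It was 1 with the replicate number as a block, when 0.0828% of all genes were called higher. It was 0 without KO replicate 1 or 3 or any WT replicate. The mean log2 signal of the list was 7.41 to 7.64 on the arrays labelled KO and 6.99 to 7.10 on the arrays labelled WT. Of 11 thymocyte markers, 0 passed, although all 11 differences were positive, and their mean log2 signal was 7.62 to 8.59 on the arrays labelled KO and 7.73 to 8.17 on those labelled WT. Of the B cell markers 0 of 5 passed, and 1 thymocyte and 1 B cell marker had an unadjusted p under 0.05 in limma. The part of such cells in the signal of the A1 genes was not tested.

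*Bcl2l2*, which encodes BCL-W, ranged from 7.45 to 7.66 on the arrays labelled KO and from 7.82 to 7.91 on the arrays labelled WT, without overlap (difference -0.30, SE 0.12, adjusted p = 0.189). Of 7 other pro-apoptotic genes, 0 passed in limma, with 1 at an unadjusted p under 0.05. *Bcl2l15* came nearest, at 7.28, 6.74 and 7.56 on the arrays labelled KO and 6.34, 6.2 and 6.28 on the arrays labelled WT, with a difference of 0.92 (SE 0.21, adjusted p = 0.0746). It passed without replicate 2 labelled KO (1.15, adjusted p = 0.0045). *Bmf*, a BH3-only gene, differed by -0.26 (adjusted p = 0.22) and *Bcl2l14* by 0.48 (adjusted p = 0.266).

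**Figure D2:**
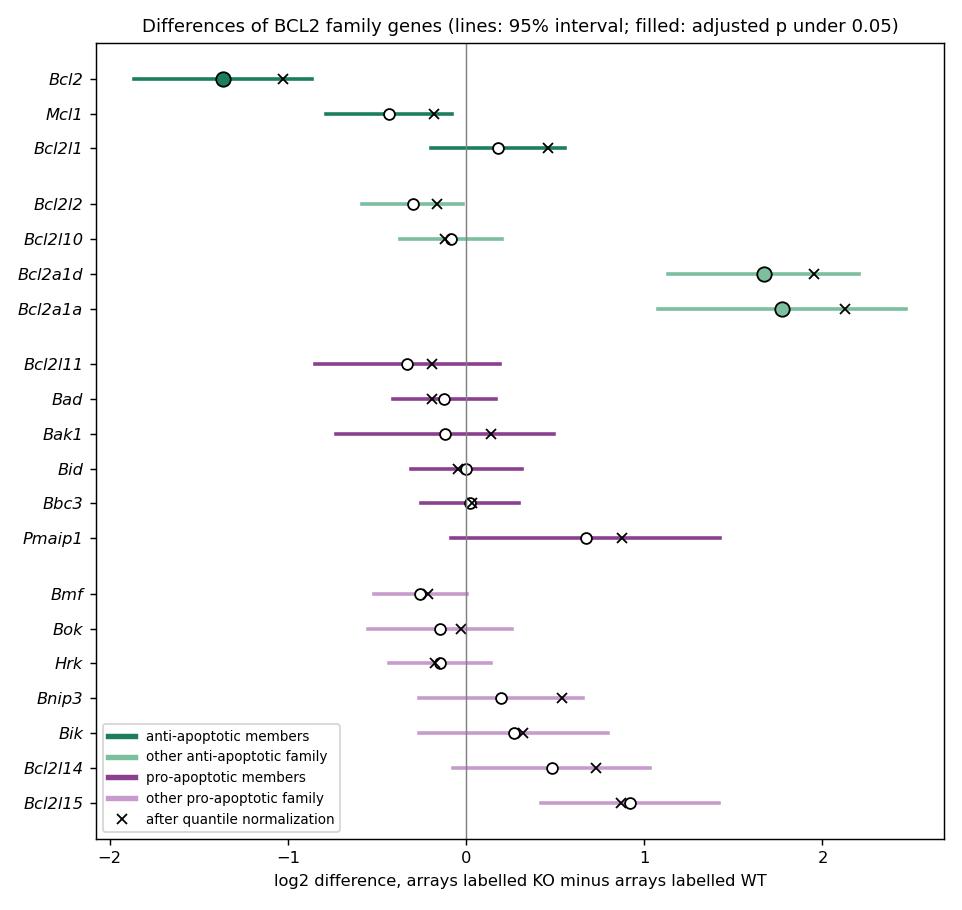
Log2 difference (x axis, arrays labelled KO minus arrays labelled WT) of the measured BCL2 family genes, grouped by role, with 95% intervals from limma. Filled points mark an adjusted p under 0.05 and crosses the difference after quantile normalization. *Bcl2* lies at -1.36, *Bcl2a1d* at 1.67 and *Bcl2a1a* at 1.77, and the intervals of all 6 pro-apoptotic members include 0.

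In a list of the apoptosome, caspases and mitochondrial proteins, 0 of 13 genes passed (1 at an unadjusted p under 0.05 in limma). Their median difference was -0.19. *Casp2* had the smallest p, at 9.47, 8.86 and 9.44 on the arrays labelled KO and 9.78, 9.96 and 9.68 on the arrays labelled WT (difference -0.55, adjusted p = 0.155). *Diablo*, whose product relieves caspase inhibition, differed by -0.34 (adjusted p = 0.218). The executioner *Casp6* differed by -0.30 (adjusted p = 0.336), while *Apaf1* differed by -0.25, *Casp9* by -0.19 and *Cycs* by 0.23 (adjusted p = 0.628, 0.423 and 0.588). Replicate 2 labelled KO was again low for *Casp2* and *Apaf1*, and without it the median of the list was 0.037 and the difference of *Apaf1* 0.08. After quantile normalization the difference of *Casp6* was 0.06.

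Of 6 inhibitors of caspases, 0 passed in limma, and 2 had an unadjusted p under 0.05. *Cflar*, which encodes c-FLIP, the inhibitor of caspase-8 at death receptors, gave 14.15, 13.84 and 14.25 on the arrays labelled KO and 13.51, 13.32 and 13.45 on the arrays labelled WT. The groups did not overlap, and the difference of 0.65 (SE 0.15) had an adjusted p of 0.0725. It passed after quantile normalization (0.88, adjusted p = 0.00814) and without replicate 2 labelled KO (0.77, adjusted p = 0.00801). *Birc5*, which encodes survivin, a protein of mitosis as well, differed by 0.37 (adjusted p = 0.142), beside 4 other genes of dividing cells, all called higher on the arrays labelled KO (*Mki67*, *Top2a*, *Ccna2* and *Cdk1*, by 1.11 to 2.32, against 0.517% of all genes called higher). Of these genes 4 passed without replicate 2 labelled KO, when 5.15% of all genes were called higher. With the replicate number as a block 1 passed, when 0.0828% of all genes were called higher. Without KO replicate 1 or 3 or any WT replicate 0 passed. Of the 5 measured genes of dividing cells, *Birc5* included, 1 had a mean above the negative control percentile. *Xiap* differed by -0.40 (adjusted p = 0.239).

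Of 8 genes of death receptors, their ligands and their signaling partners, 0 passed in limma, with 3 at an unadjusted p under 0.05. *Tnfrsf1a*, a receptor for TNF, gave 9.29, 8.59 and 9.49 on the arrays labelled KO and 10.50, 11.52 and 10.52 on the arrays labelled WT, without overlap, and its difference of -1.72 (SE 0.34) had an adjusted p of 0.0575. It passed after quantile normalization (-1.38, adjusted p = 0.0262) and without replicate 2 labelled KO (-1.46, adjusted p = 0.0323). For *Tnfrsf1a*, 0 of the arrays labelled KO and 3 of those labelled WT exceeded their own negative control percentile. *Tnfsf10*, which encodes TRAIL, differed by -1.04 (adjusted p = 0.0974) and *Ripk1* by -0.61 (adjusted p = 0.178). Other genes of the list had positive differences, of 0.32 for *Fas* (adjusted p = 0.573) and 0.47 for *Tnfrsf10b*, a receptor for TRAIL (adjusted p = 0.349). Without replicate 2 labelled KO both passed, *Fas* at 0.68 (adjusted p = 0.0204) and *Tnfrsf10b* at 0.77 (adjusted p = 0.0267), and after quantile normalization *Tnfrsf10b* passed at 0.79 (adjusted p = 0.0314). Among 11 genes of the p53 pathway, 0 passed in limma, with 1 at an unadjusted p under 0.05, and the smallest p were those of *Sesn1* (-0.97, adjusted p = 0.158), *Ccng1* (-0.39, adjusted p = 0.248) and *Trp53inp1* (-0.49, adjusted p = 0.263). *Cdkn1a*, a p53 target that arrests the cell cycle, differed by -0.16 (adjusted p = 0.585). After quantile normalization *Mdm2* (0.50, adjusted p = 0.0413) and *Sesn2* (0.53, adjusted p = 0.0404) passed, when 7.28% of all genes did. *Sesn2* also passed without replicate 2 labelled KO (0.51, adjusted p = 0.0229), when 11.2% of all genes did. In both settings 0 genes of this list passed as lower.

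Of 14 genes that regulate members of the family, 1 passed and was lower, and 7 had an unadjusted p under 0.05 in limma, against 1.18% and 23.7% of all genes. *Il7*, the cytokine that maintains *Bcl2* in thymocytes and T cells and is made by TECs, gave 9.06, 8.70 and 9.10 on the arrays labelled KO and 10.57, 11.23 and 10.61 on the arrays labelled WT. The groups did not overlap, and the difference was -1.85 (SE 0.21, adjusted p = 0.0266). For *Il7*, 0 of the arrays labelled KO and 3 of those labelled WT exceeded their own negative control percentile. Leaving out KO replicate 1 or 3 or any WT replicate gave adjusted p of 0.0775 to 0.114. *Pim1*, a STAT-induced survival kinase, differed by -0.75 (adjusted p = 0.0665, and 0.0269 without replicate 2 labelled KO, when the difference was -0.63) and *Foxo3* by -0.75 (adjusted p = 0.13). *Stat3* differed by -0.38 (adjusted p = 0.186) and *Il7r*, the receptor of IL-7, by 0.027 (adjusted p = 0.959). Without replicate 2 labelled KO, *Stat5a* (0.41, adjusted p = 0.0392) and *Pim2* (0.50, adjusted p = 0.0263) passed in the other direction. The study's table of these samples lists *Tnfrsf1a*, *Foxo1* and *Il7* with the direction opposite to the one printed here, as it does *Bcl2*, so none of them is independent evidence of a direction.

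**Figure D3:**
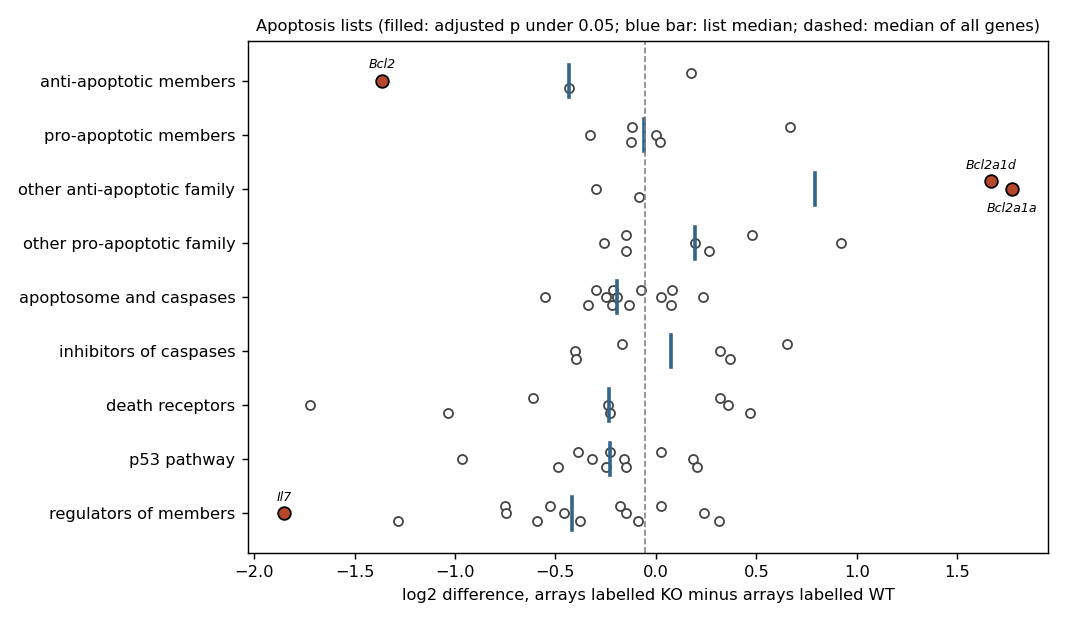
Log2 difference (x axis, arrays labelled KO minus arrays labelled WT) of every measured gene of 9 lists, 1 point a gene, filled where the adjusted p was under 0.05. Blue bars are list medians, from -0.43 to 0.79, and the dashed line is the median of all genes at -0.053. *Bcl2*, *Il7*, *Bcl2a1a* and *Bcl2a1d* are the 4 genes that passed.

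**Figure D4:**
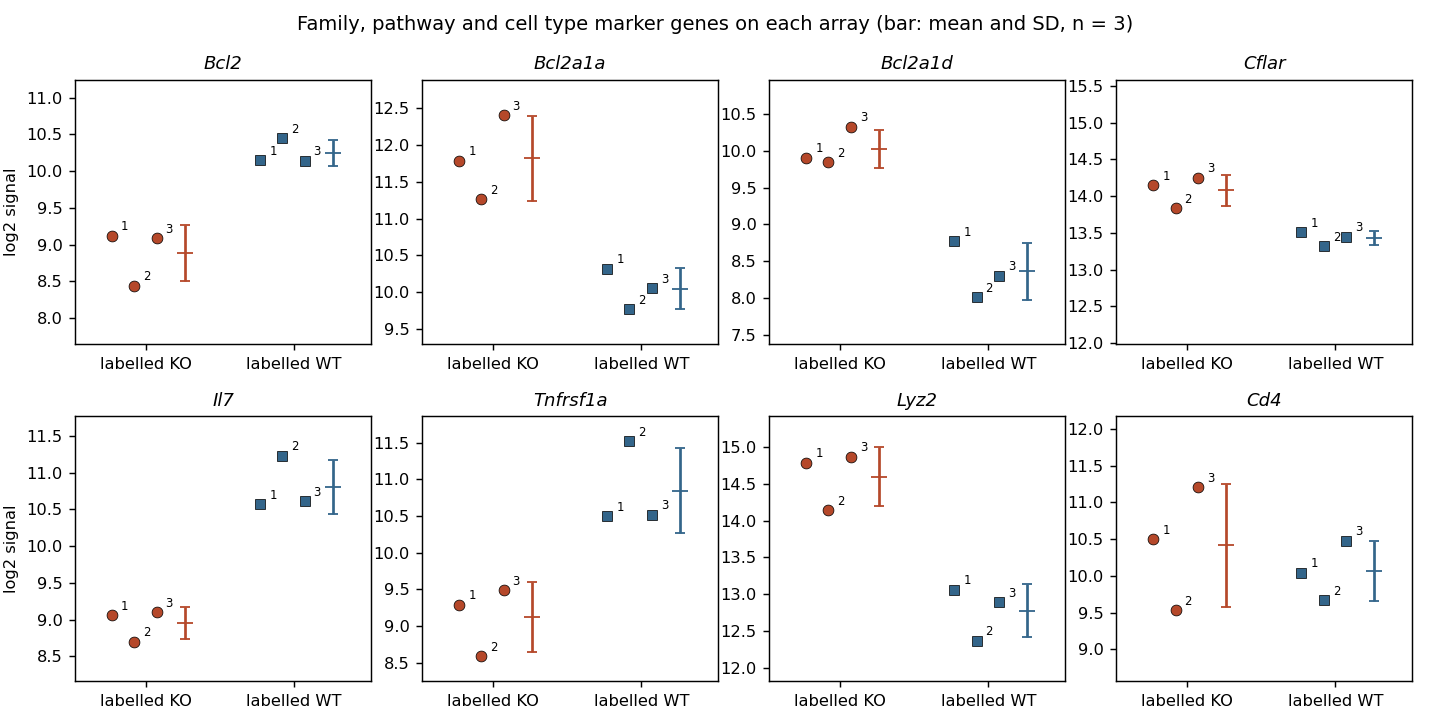
Log2 signal (y axis, the same span in every panel, each with its own origin) of *Bcl2*, the A1 genes, *Cflar*, *Il7*, *Tnfrsf1a*, the myeloid marker *Lyz2* and the thymocyte marker *Cd4* on the 3 arrays labelled KO and the 3 arrays labelled WT, with replicate numbers and the mean and SD of each group. The groups overlap only for *Cd4*, at 9.53 to 11.21 on the arrays labelled KO and 9.67 to 10.48 on the arrays labelled WT.

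Over the 6 arrays, the genes above the negative controls whose signals followed *Bcl2* most closely were *Mylip* (Pearson r 0.9997), *Nedd4l* (0.9986) and *Oat* (0.9985), with differences of -1.59, -1.29 and -2.10. These correlations are a description over 6 arrays that share the division into groups and the low level of replicate 2 labelled KO, and 738 of the 4446 genes searched reached an r of 0.95.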

How the data were processed

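RNA of 3 samples of sorted TECs labelled KO and 3 labelled WT was hybridized to whole-transcriptome arrays. The authors' deposited table holds log2 signals, 1 for each probe set and array. Their methods name MAS5 scaling to a fixed target and then per chip and per gene median normalization in GeneSpring. Values were not centred per gene and array medians differed, so the steps the table includes are not known, nor is its genome build. Of 65956 transcript clusters, 30638 had 1 gene symbol in the platform annotation, 2176 had several and 33142 had none, and clusters without a single symbol were left out. The probe set with the highest mean was kept for each of 30176 genes, and arrays were shifted to 1 median.

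Differences between groups were fitted by limma (version 3.58.1, R 4.3.3) through lmFit and eBayes, the prior variance held constant over intensity, with 3.19 prior and 4 residual degrees of freedom, Benjamini-Hochberg adjustment over all genes and a threshold of 0.05. Python 3.11.15, scipy 1.17.1 and pandas 2.3.3 were used for the rest. The fit was checked on simulated data. Genes named were all members, *Socs3*, called genes and up to 3 others with the smallest p in each list, and the 3 genes most correlated with *Bcl2*. Members, lists and this rule were chosen with earlier results of these data known, and other genes named were chosen after their values were seen. Alternatives were no shift, quantile normalization, filters on dim genes, averaged or single probe sets, array weights, an intensity trend with a robust prior, Student's test, unadjusted p, a 2-fold threshold, the replicate number as a block, and leaving out each array. Promoter windows are those of RefSeq for GRCm38.p6. The number of arrays, 3 a group, limits the precision.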

Additional observations from a re-analysis of the deposited data

How the results depend on the processing

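With main settings 1 of the 9 members and 512 of all genes passed. The count of members was 2 after quantile normalization (*Bcl2* and *Bcl2l1*), 2 with array weights (*Bcl2* and *Pmaip1*), and 2 at an unadjusted p of limma or of Student's test. It was 0 among genes above the negative controls, where *Bcl2* was not tested, 0 with Student's test after Benjamini-Hochberg adjustment and 0 with the replicate block. Leaving out single arrays gave 0 to 2 members. For all genes the count was 2198 after quantile normalization, 1247 among genes above the median, 4543 with array weights, 4 with Student's test adjusted and 29 with the replicate block, 7161 and 5816 at an unadjusted p of limma and of Student's test, and 0 to 3381 when single arrays were left out, the highest without KO replicate 2 and at most 4 without any other array. In the lists with 0 called genes, Student's test gave 0 to 2 genes at an unadjusted p and 0 after adjustment. Student's test with an unadjusted p and the alternatives of the lists were added after the data were seen.

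The difference of *Bcl2* was negative throughout, at -1.48 to -1.14 with single arrays left out and -1.03 after quantile normalization. Its adjusted p was 0.113 with the replicate block and 0.163 with Student's test. Whether the replicate numbers pair the samples is not known. Deviations of same-numbered arrays correlated at 0.073, -0.13 and -0.18, within the -0.26 to 0.26 of arrays with different numbers. Deviations were taken from group means of 3 arrays, so these values cannot decide it. The median of the anti-apoptotic genes was -0.18 after quantile normalization and -0.50 to -0.30 with single arrays left out. That of the pro-apoptotic genes was 0.077 without the shift of medians, when the median of all genes was 0.083 instead of -0.053, and -0.098 to 0.039 with single arrays left out.

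Among the members, signs turned for *Bak1*, *Bbc3* and *Bad*, none of which passed in any setting. *Bak1* was 0.017 without the shift, 0.14 after quantile normalization, 0.19 with array weights and -0.30 to 0.16 with single arrays left out. *Bbc3* was -0.021 with array weights and -0.027 to 0.058 with single arrays left out, and *Bad* was 0.013 without the shift. The cause of these changes was not tested. Of the 9 members, 8 had mean signals that did not exceed the negative controls' 95th percentile, which limits what their differences show.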
